A study of Mus musculus with 14 samples.

Results

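Expressed loci that carried an identifier but no gene symbol were described in bulk RNA-seq of mouse mammary tumors. The deposited table lists 56414 loci of the Mouse FAST DB annotation, of which 30657 have no symbol. A locus without a symbol was retained when its mean value was at least 50 in at least 1 of 4 groups of tumors. This rule retained 1856 loci (6.05% of those without a symbol), each written below by its identifier. A further 15658 loci without a symbol were at 0 in all tumors and 13143 were above 0 but under the minimum. The loci were thus chosen by the measured values themselves, through the highest of 4 group means. A locus that entered through a single high group had to differ between groups, and counts of loci that differed are therefore given as descriptions.

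The values are normalized reads, that is, the reads falling on a locus divided by a size factor of the tumor. They were not divided by length, so values are compared between tumors for a given locus, and between loci only as reads taken. The 4 groups were sequenced with 1 library of polyA RNA per tumor, for 14 tumors in all. M/D-driven tumors arose in C57Bl/6 females that received a slow-release pellet (50 mg, 90 days) of the progestin medroxyprogesterone acetate (MPA, M) at 6 to 9 weeks of age and oral 7,12-dimethylbenz[a]anthracene (DMBA, D; 200 µL at 5 mg/mL), so that M/D-driven tumors with and without NAM had all met the progestin and the carcinogen. AT3 tumors grew in C57Bl/6 mice from subcutaneously injected cells of the AT3 mammary carcinoma line. Mice of either model entered the groups at a tumor area of 0.25 cm2, and nicotinamide (NAM, an amide form of vitamin B3) was given at 0.5% in drinking water for 10 days. Of M/D-driven tumors 4 were untreated and 4 received NAM, and of AT3 tumors 3 were untreated and 3 received NAM. Untreated here means without NAM. M/D-driven tumors belonged to experiment 1, except NAM-treated tumor 1, which belonged to experiment 2, and all AT3 tumors belonged to experiment 3, so model and experiment cannot be told apart. The labels do not tie tumors to mice, and p values measure the spread between these tumors.

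The reads per tumor ranged from 40936868 to 84178009, and the loci without a symbol took 3.74 to 10% of them, the highest share being that of untreated AT3 tumor 2. NAM-treated M/D-driven tumor 1 stood apart. Its summed value over 6 markers of the B lineage was 319415, against 110.4 to 1584 in the other M/D-driven tumors and 52.04 to 221.7 in AT3 tumors. Its summed value over 7 epithelial keratins and adhesion molecules was 7047, against 250181 to 1013084 in the other M/D-driven tumors and 73038 to 100557 in AT3 tumors. No epithelial marker was at 0 in this tumor, and *Krt14*, a basal keratin, was lowest in it at 423.6. Call counts, medians by position and calls of named loci were recomputed without it.

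A sequenced transcript may lack a gene symbol for several reasons known from genome annotation. Processed pseudogenes are copies of spliced messenger RNAs that were reverse transcribed back into the genome, so that a short read from the parent gene may match the copy as well. Introns are removed from primary transcripts in the nucleus and usually decay, and active promoters often release short-lived non-coding RNA in the direction away from the gene. Mitochondrial genes and ribosomal RNA repeats are among the most abundantly transcribed DNA of a cell, and pieces of the mitochondrial genome have been inserted into nuclear chromosomes.

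Short loci in pseudogenes illustrate why a read could be shared with a named gene. Of the 1856 loci, 106 spanned under 100 bp. The sequences below were read from GENCODE transcripts on GRCm38 (mm10), 5′ to 3′ on the strand of the transcript from which each was read. They are shown because each matched the coding sequence of a protein-coding gene over its whole length. A capital letter marks the only base that differs from that gene, and 5 of the 6 sequences have none.

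GSMG0060006, 46 bp, chr3:37715029-37715074, minus strand, *Gm5148* and *Rps23-ps1*: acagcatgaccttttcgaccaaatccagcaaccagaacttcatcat
GSMG0060007, 20 bp, chr12:17233806-17233825, plus strand, *Gm10054*: atcaggaagtgcgtcagggt
GSMG0010172, 80 bp, chr13:108671229-108671308, plus strand, *Rps3a3*: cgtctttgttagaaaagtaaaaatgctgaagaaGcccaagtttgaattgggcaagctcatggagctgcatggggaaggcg
GSMG0043389, 148 bp, chr3:21049686-21049833, plus strand, *Gm7488*: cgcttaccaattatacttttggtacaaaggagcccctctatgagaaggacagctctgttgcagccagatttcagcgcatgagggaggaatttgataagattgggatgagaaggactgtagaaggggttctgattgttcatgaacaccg
GSMG0059306, 21 bp, chr13:81065674-81065694, plus strand, *Gm8399*: tgagcgcaagtactcagtctg
GSMG0057393, 20 bp, chr2:41987842-41987861, minus strand, *Gm13461*: taatgtttgatgtaacctca

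The first 2 sequences match *Rps23*, a protein of the small ribosomal subunit. GSMG0060006 reads along the strand opposite to the *Rps23* messenger. GSMG0010172 matches *Rps3a1*, also of the small ribosomal subunit, at 79 of 80 bases. GSMG0043389 matches *Nudt21*, a factor of messenger 3′ end cleavage, GSMG0059306 matches the cytoplasmic actin *Actg1*, and GSMG0057393 matches the nuclear transport GTPase *Ran*. For GSMG0060007 the match was tied between 4 genes.

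The loci lay in 13 kinds of position relative to GENCODE genes, a locus being assigned to exons when these covered at least 10% of its span. Exons of protein-coding genes held 597 loci (32.2%), introns of protein-coding genes 394 (21.2%), exons of long non-coding RNAs (lncRNAs) 221 (11.9%) and exons of TEC genes, a class that GENCODE keeps for transcribed regions awaiting further experiments, 159 (8.57%). Pseudogene exons held 146 loci (7.87%). A further 101 loci were within 5 kb downstream and 74 within 5 kb upstream of a protein-coding gene, 74 were in introns of other genes, and 46 were farther away. The remaining loci were in immunoglobulin or T cell receptor segments (19), the mitochondrial genome (12), unplaced scaffolds (10) and small RNA genes (3). Among the other 28801 loci without a symbol, which were under the minimum, introns of protein-coding genes made up 33.7%, positions farther than 5 kb 26.4% and protein-coding exons 9.18%.

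**Figure D1:**
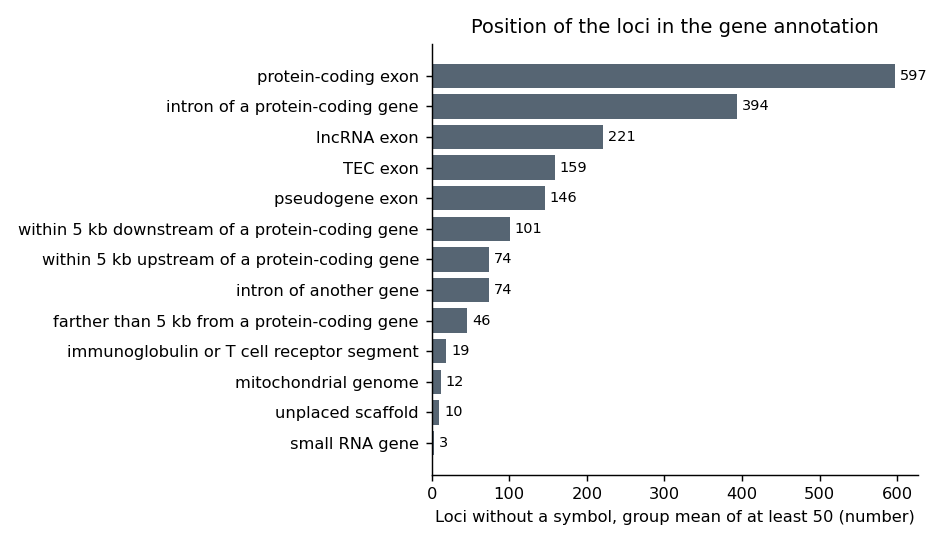
Number of the 1856 expressed loci without a symbol by position relative to GENCODE genes. Protein-coding exons held the most, 597 loci. This was 32.2% of the expressed loci, against 9.18% of the other loci without a symbol, which are not drawn.

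The 597 loci in protein-coding exons were mostly pieces of named genes. No coding base was found in 349 of them, only 19 lay mostly in coding sequence, and 515 were in exons of the gene that the nearest or overlapping locus with a symbol names. A protein-coding gene was matched with a reciprocal overlap of at least 0.5 by 31 of them. An example is GSMG0050899, which held the desmosomal gene *Dsp*. Its normalized reads were 31526, 9634, 42587 and 66212 in untreated and 107, 28619, 9487 and 13637 in NAM-treated M/D-driven tumors, and 753.6 to 4013 in AT3 tumors. The lowest value of M/D-driven tumors was that of NAM-treated tumor 1, in which epithelial markers were also lowest. Over all positions, 470 loci (25.3%) matched any GENCODE gene. Relative to loci with a symbol, 686 (37%) lay inside one, 286 (15.4%) overlapped one and 862 (46.4%) were outside, 585 of these within 5 kb.

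Spans ranged from 20 to 887933 bp with a median of 2137 bp (quartiles, 1161 and 3301), whereas loci with a symbol above the same minimum had a median span of 21188 bp. Pseudogene loci were short, with a median of 148 bp, and 137 loci in all were under 200 bp. The longest locus was GSMG0053349 (chr8:19695152-20583084). It took 1276 to 1917 normalized reads in untreated and 1369 to 2753 in NAM-treated M/D-driven tumors, and 1779 to 2328 and 1908 to 2323 in untreated and NAM-treated AT3 tumors. GSMG0043764 (586946 bp) followed and lay in the T cell receptor alpha and delta region of chromosome 14, with 184.3 to 822.3 in untreated M/D-driven and 26.4 to 60.23 in untreated AT3 tumors, which did not overlap. GSMG0043143 (301005 bp, chromosome 1) ranged from 82.89 to 1160 across all 14 tumors, and its 4 groups overlapped. At the other end stood 3 loci of 20 bp, GSMG0060007 and GSMG0057393 printed above and GSMG0057388, which lay in an intron of *Lrp1b* as did the second.

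The minimum was met in all 4 groups by 814 loci (43.9%) and in 1 group only by 526 (28.3%). It was met in both models by 1056 loci, in M/D-driven tumors only by 524 and in AT3 tumors only by 276. By group, 1201 loci reached it in untreated and 1482 in NAM-treated M/D-driven tumors, and 1278 and 1013 in untreated and NAM-treated AT3 tumors. Just inside the minimum were GSMG0016237, GSMG0015990 and GSMG0020035, with highest group means of 50, 50.01 and 50.03. Just outside were GSMG0008670, GSMG0042395 and GSMG0031089, with 49.93, 49.91 and 49.91.

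Mitochondrial loci were among those that took the most reads. Of the 13 loci on the mitochondrial genome 12 reached the minimum, with a median of 20082 reads taken. The highest of all was GSMG0041514 (chrM:5325-6941), which holds the cytochrome oxidase subunit *mt-Co1*. It took 682541, 1000444, 924171 and 1038553 normalized reads in untreated and 974323, 506027, 706965 and 713485 in NAM-treated M/D-driven tumors, and 593651, 1008078 and 701791 in untreated and 627220, 546486 and 732021 in NAM-treated AT3 tumors. All 4 groups overlapped. No locus covered chrM:6942-9202, a stretch of 2261 bp that holds *mt-Co2*, *mt-Atp8*, *mt-Atp6* and most of *mt-Co3*. Instead, neighbouring loci on chromosome 1, within the span that the deposited table gives to *Lmbrd1*, ranked among the highest. GSMG0043411 (chr1:24613188-24614814) shares 783 bases with *mt-Co3* without a mismatch and took 279520 normalized reads on average over the 14 tumors. GSMG0043410 (chr1:24614879-24615568) shares 681 bases with *mt-Co2* and took 125960.

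Untreated tumors of the models were compared on recovered reads scaled alike by TMM (a trimmed mean of log ratios) and fitted with limma over 21470 loci. Of 12 mitochondrial loci, 3 were called higher in M/D-driven and 1 higher in AT3 tumors. Over all loci tested 26.8% and 15.8% were so called, and nothing is read from the mitochondrial counts. GSMG0041518 (*mt-Nd5* and *mt-Cytb*) took 347298, 525946, 492487 and 540655 normalized reads in untreated M/D-driven and 105017, 208924 and 128157 in untreated AT3 tumors. These groups did not overlap, and the log2 difference was 1.5 (SE 0.35, Benjamini-Hochberg adjusted p = 0.00767 by limma). The log2 difference was 1.52 (adjusted p = 0.00858 by limma) for GSMG0041516 (*mt-Nd4*) and 1.05 (adjusted p = 0.0115) for GSMG0041513 (*mt-Nd2*), against 0.03 (SE 0.39) for the *mt-Co1* locus.

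A locus named after ribosomal RNA was higher in untreated AT3 than in untreated M/D-driven tumors. GSMG0050945 (chr17:39842997-39848829) holds the whole of *Rn18s-rs5*, a RefSeq pseudogene of 1849 bp named after 18S ribosomal RNA. It took 66182, 105012, 88358 and 79368 normalized reads in untreated and 93936, 136428, 93972 and 116590 in NAM-treated M/D-driven tumors, against 641434, 1913094 and 313483 in untreated and 789154, 106991 and 75519 in NAM-treated AT3 tumors. Every untreated AT3 tumor was above every M/D-driven tumor, while NAM-treated AT3 tumors spanned both ranges. The log2 difference of untreated M/D-driven to untreated AT3 tumors was −3.36 (SE 0.55, adjusted p = 0.00157 by limma), and the NAM difference in AT3 tumors was −1.97 (SE 0.90, adjusted p = 0.214 by limma). This single locus held 3.87% of the reads of untreated AT3 tumor 2, against 0.116 to 0.224% in M/D-driven tumors.

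The mitochondrial ribosomal RNA locus GSMG0041510 (*mt-Rnr1*) took 6245, 7207, 8917 and 23613 normalized reads in untreated M/D-driven and 28759, 145982 and 19497 in untreated AT3 tumors, which overlapped (log2 difference −2.37, SE 0.70, adjusted p = 0.0206 by limma). GSMG0041512, which holds *mt-Rnr2* together with *mt-Nd1*, took 104130, 154304, 143555 and 171511 in untreated M/D-driven and 84911, 252411 and 72122 in untreated AT3 tumors, again with overlap (log2 difference 0.05, SE 0.44, adjusted p = 0.933 by limma). Untreated AT3 tumor 2 was highest of the 14 tumors for all 3 loci. Libraries were prepared from polyA RNA, and the part of residual ribosomal RNA in the loci named here was not tested.

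**Figure D2:**
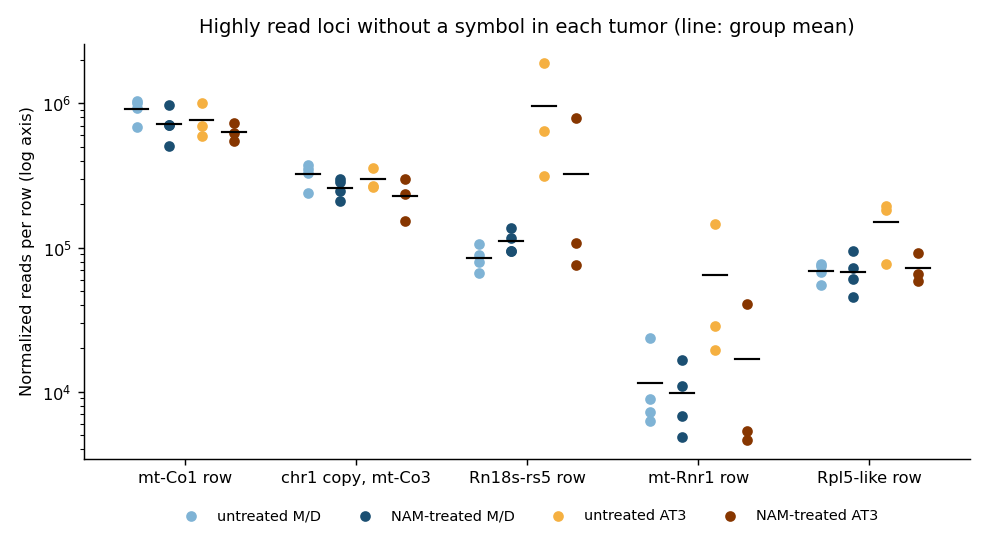
Normalized reads (log axis) of 5 highly read loci in each of the 14 tumors, as points, with the group mean as a line. The *Rn18s-rs5* and *mt-Rnr1* loci reach their highest value, 1913094 and 145982, in an untreated AT3 tumor, while the *mt-Co1* locus overlaps between groups.

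Pseudogene loci resembled the messengers they copy. Sequence was available for 139 of the 146 loci, 124 matched a protein-coding transcript over at least 90% of the bases compared, and 91 were identical over these bases. The 124 matches named 94 genes, and for 28 loci the gene was a ribosomal protein of the *Rpl* or *Rps* families. A locus with a symbol existed for the matched gene in 120 cases, and 7 of the 120 took more reads than that gene. The highest of these was GSMG0036555 (*Gm15500*, 373 bp, chr7:114705473-114705845), which matches *Rpl5* and took 86928 normalized reads on average against 7924 for the *Rpl5* locus. The printed *Nudt21* copy GSMG0043389 took 793.7 against 96.82, and the copy of the microtubule regulator *Stmn1*, GSMG0027930, took 12381 against 10246. Which of copy and parent produced these reads was not tested.

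Values by tumor follow for printed copies. GSMG0043389 took 752, 865.9, 563.2 and 636.6 normalized reads in untreated and 1233, 692.9, 860.7 and 445.2 in NAM-treated M/D-driven tumors, and 1090, 712.8 and 1060 and then 829.8, 716.9 and 653.4 in AT3 tumors. GSMG0057393 took 351.1, 269.5, 241.1 and 291.3 and then 789.4, 358, 351.6 and 137.2 in M/D-driven tumors, and 928.9, 412.2 and 1125 and then 620.9, 379.1 and 419.7 in AT3 tumors. For both copies untreated and NAM-treated tumors overlapped in either model. GSMG0060006 took 8426, 10614, 7584 and 11959 normalized reads in untreated and 11018, 9647, 8250 and 6193 in NAM-treated M/D-driven tumors, which overlapped. It took 26739, 15810 and 29059 in untreated and 14270, 9335 and 8974 in NAM-treated AT3 tumors, which did not overlap (log2 difference −1.12, SE 0.30, adjusted p = 0.166 by limma). The *Rps23* locus took 44821, 24821 and 41373 and then 24368, 17863 and 18129 in the same AT3 tumors, a log2 difference of −0.85. Both were thus lower in every NAM-treated than in every untreated AT3 tumor.

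Other ribosomal copies were compared in the same way. GSMG0010172 took 12150, 6877 and 13351 in untreated and 6606, 3742 and 4015 in NAM-treated AT3 tumors (log2 difference −1.16, SE 0.32, adjusted p = 0.166 by limma), beside −0.91 for *Rps3a1*. GSMG0060007 took 529, 325.9 and 455 and then 215.1, 175 and 133.8, a log2 difference of −1.32. Neither locus overlapped between untreated and NAM-treated AT3 tumors. In M/D-driven tumors the log2 NAM differences of GSMG0060006, GSMG0010172 and GSMG0060007 were between −0.06 and −0.17, with overlapping groups. Conversely, the actin copy GSMG0059306 took 3068, 3557, 3095 and 3751 in untreated and 1549, 2600, 2818 and 2523 in NAM-treated M/D-driven tumors, which did not overlap. Its log2 difference was −0.54 (SE 0.22, unadjusted p = 0.0428 and adjusted p = 0.734 by limma), beside −0.53 for *Actg1*.

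Over the 120 copies tested in M/D-driven tumors the median log2 NAM difference was −0.06, against −0.09 for the 90 parent loci, and 112 copies were within 0.5 of their parent. In AT3 tumors the medians were −0.31 over 118 copies and −0.35 over 89 parents, and 92 copies were within 0.5. The sign was that of the parent for 101 of 120 and 97 of 118 copies. Copies and parents share libraries and, for identical sequence, possibly reads, so these counts are descriptions.

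**Figure D3:**
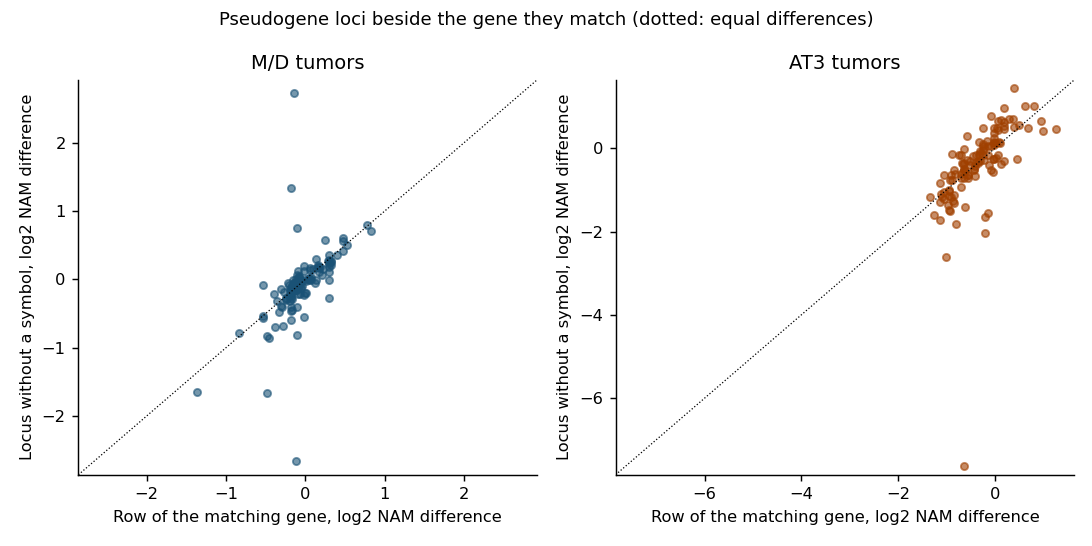
Log2 NAM difference of pseudogene loci (y axis) against that of the protein-coding gene with the matching sequence (x axis), 1 point per locus, in M/D-driven and AT3 tumors. A dotted line marks equality. Of the copies, 112 of 120 in M/D-driven and 92 of 118 in AT3 tumors lie within 0.5 of the parent.

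Spread between tumors was summarized by the SD of log2 values within groups, with a median of 0.68 (range, 0.12 to 4.18). It was 1 or more for 495 loci (26.7%). By position the median was lowest in pseudogene exons (0.43) and highest in immunoglobulin and T cell receptor segments (2.4), with 0.60 in protein-coding exons and 0.83 in introns of protein-coding genes. At a group mean of 50 to 200, loci without a symbol had a median SD of 0.49 in untreated and 0.81 in NAM-treated M/D-driven tumors, against 0.71 and 1.21 for loci with a symbol. The corresponding values were 0.52 and 0.35 against 0.46 and 0.42 in untreated and NAM-treated AT3 tumors.

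The steadiest loci were pieces of broadly expressed genes. GSMG0045547 in an exon of the phosphatase-like gene *Mtmr9* took 2742 to 3825 normalized reads in M/D-driven and 1764 to 2083 in AT3 tumors (SD 0.12). These ranges did not overlap, but the values were scaled apart by model, so no difference between models is read from them. Next came exon loci of *Jrk* (GSMG0014116, 0.14), *Pura* (GSMG0018243, 0.15) and *Kbtbd2* (GSMG0043484, 0.16).

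Genes of skin and of B cells were among the most variable loci. GSMG0025684, the locus of the epidermal gene *2210017I01Rik* beside the late cornified envelope gene *Lce6a*, took 2240, 0, 3082 and 6024 normalized reads in untreated and 0, 1069, 1.841 and 0 in NAM-treated M/D-driven tumors, and 0 in all AT3 tumors. GSMG0027753 in an exon of *Pax5*, a transcription factor of B cells, took 8484 in NAM-treated M/D-driven tumor 1 and at most 40.51 in any other tumor. The immunoglobulin heavy chain locus GSMG0060529 (*Ighg2b*) took 28381 in this tumor and at most 26.86 elsewhere, and the kappa segment GSMG0033140 (*Igkv8-24*) took 3608. In the same tumor *Vpreb1* and *Igll1*, parts of the surrogate light chain of B cell precursors, stood at 67823 and 80368.

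A locus inside the T cell receptor beta region, GSMG0032945 (chr6:41198491-41201844), was also variable. It took 64875, 729, 175699 and 180853 normalized reads in untreated and 1546, 10361, 1450 and 2459 in NAM-treated M/D-driven tumors, and 84.27 to 415.5 in AT3 tumors. Its M/D-driven groups overlapped through untreated tumor 2. The summed value of 5 T and NK cell markers was 5670, 2648, 3181 and 1919 in the untreated and 1467, 2702, 2898 and 9161 in the NAM-treated M/D-driven tumors, so the tumor with most T and NK marker reads was not among those with most reads on this locus. Untreated M/D-driven tumors were higher than untreated AT3 tumors (log2 difference 7.76, SE 1.72, adjusted p = 0.00602 by limma). In bulk samples, fewer cells of a type and less RNA per cell cannot be told apart.

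GSMG0043435 (224 bp, chr12:10898691-10898914) lay 191288 bp from *Kcns3*, the nearest protein-coding gene. It was at 0 in 6 of 8 M/D-driven tumors, with 58.75 in untreated tumor 4 and 174.1 in NAM-treated tumor 4. In AT3 tumors it took 0, 1100 and 1096 in untreated and 1355, 1045 and 958.3 in NAM-treated tumors. Thus 1 AT3 tumor was at 0 and the others were within a narrow range.

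The first test compared NAM-treated with untreated M/D-driven tumors by limma on log2(value + 1). Loci with a p value, not adjusted, up to 0.05 and at least a 1.5-fold difference were called. Of the 1856 loci 1828 were tested, since the other 28 had group means under 10 in both groups. Among the 21700 loci tested with and without a symbol, 3.03% were called higher and 3.19% lower with NAM. Among loci without a symbol 139 (7.6%) were higher and 36 (1.97%) lower, with a median log2 difference of 0.17 against 0.01 over all loci tested. No locus without a symbol passed a Benjamini-Hochberg adjusted p of 0.05 by limma, 178 had an unadjusted p of at most 0.05, edgeR gave 0 and DESeq2 gave 20. The share of all loci passing the adjusted threshold by limma was 0.00461%. Untreated and treated tumors were fully separated at 97 loci in the higher and 15 in the lower direction, where 2.43% and 2% of all loci did so. Removal of each tumor's trend with span left 128 higher and 80 lower loci without a symbol, with 3.06% and 3.09% of all loci, and took the median to −0.01. As the rule takes the highest group mean, nothing is read from these shares.

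Calls are given by position. Of 382 tested loci in introns of protein-coding genes 61 were called higher and 4 lower with NAM, with a median log2 difference of 0.60. The corresponding counts were 27 and 5 of 214 in lncRNA exons (median 0.37), 12 and 2 of 157 in TEC exons (0.46), 10 and 1 of 73 upstream of genes (0.48), 19 and 17 of 593 in protein-coding exons (0.04) and 0 and 2 of 146 in pseudogene exons (−0.08). Intron loci were also set beside the named gene that holds them. Over 313 intron loci the median was 0.75, against −0.00 over their 287 host genes, and 272 (86.9%) were above the host. Of the 54 higher ones, 1 had a host that was itself called higher. Intron loci were retained by their highest group mean, a rule that was not applied to host genes. The rule by itself favors loci that are high in a single group, so nothing is read from this contrast with host genes.

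The intron counts moved with single tumors. NAM-treated tumor 4 had the highest value for 183 of the 382 intron loci, its median deviation from the mean of the 8 tumors being 0.98 on the log2 scale. Untreated tumor 2 had the lowest value for 150 of them, with a median deviation of −0.73. Without NAM-treated tumor 4, 24 intron loci were higher and 1 lower, without untreated tumor 2, 27 and 7, and without NAM-treated tumor 1, 37 and 0. Without NAM-treated tumor 2 they were 101 and 7, and without untreated tumor 3, 73 and 2. The median log2 difference of intron loci was between 0.40 and 0.83 with each tumor left out in turn. After removal of each tumor's trend with span, 53 intron loci were higher and 7 lower, with a median of 0.46. In pseudogene exons NAM-treated tumor 4 was instead the lowest for 88 of 146 loci, with a median deviation of −0.49.

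**Figure D4:**
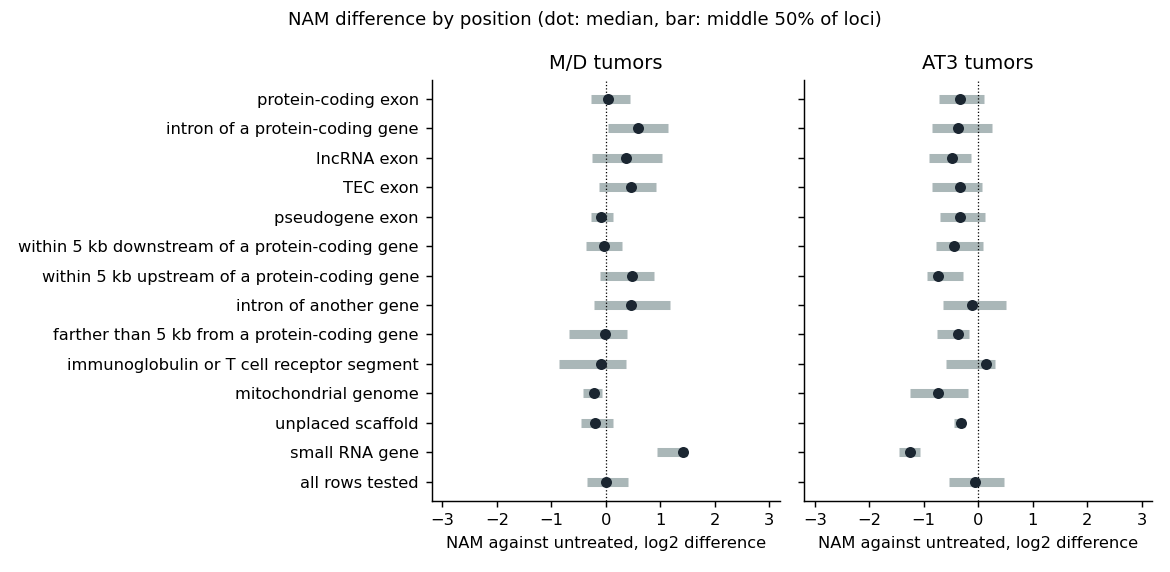
Median log2 NAM difference (point) with quartiles (line) of loci without a symbol by position, in M/D-driven and AT3 tumors. Medians in introns of protein-coding genes are 0.60 in M/D-driven and −0.38 in AT3 tumors, and in pseudogene exons −0.08 and −0.33.

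The loci named here were those with the smallest p among called loci whose groups did not overlap, and all had an adjusted p of 0.734 by limma. GSMG0006718 (chr11:58974224-58976213), inside the non-coding gene *2310058D17Rik*, took 60.25, 33.68, 119.4 and 49.89 normalized reads in untreated and 299.6, 197.3, 175.8 and 219 in NAM-treated M/D-driven tumors. Its log2 difference was 1.87 (SE 0.43, unadjusted p = 0.00232 by limma). In AT3 tumors it went the other way, from 324.6, 371.6 and 293.8 to 256.4, 150.5 and 165.2.

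Other higher loci lay in and beside protein-coding genes. GSMG0030728 (TEC gene *Gm43039*, inside the ubiquitin ligase gene *Rchy1*) took 14.54, 5.433, 16.52 and 18.51 and then 62.81, 49.93, 40.5 and 54.55 normalized reads, a log2 difference of 1.94 against 0.17 for *Rchy1*. GSMG0006248 in an intron of *Drg1*, which encodes a GTP-binding protein, took 4.155, 2.173, 6.759 and 6.438 and then 27.16, 19.48, 14.73 and 24.07 (log2 difference 1.98). GSMG0013266 (*Gm49066*), 30 bp upstream of the focal adhesion kinase gene *Ptk2*, took 10.39 to 19.52 in untreated and 36.53 to 83.43 in NAM-treated tumors (1.68, against 0.17 for *Ptk2*). In all 3 loci every NAM-treated M/D-driven tumor was above every untreated one. GSMG0030728 met the minimum of 50 through NAM-treated M/D-driven tumors alone, and values under 10 in M/D-driven tumors rest on few reads, as 1 read was worth 0.751 to 1.218 there.

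GSMG0017615 in an intron of *Bicral*, a chromatin remodelling subunit, took 35.85 to 70.82 and then 118.8 to 175.7 (log2 difference 1.36). GSMG0006633, 9 bp downstream of the collagen gene *Col23a1*, took 6.438 to 13.04 and then 28.54 to 39.05 (1.68), while the *Col23a1* locus had a log2 difference of 0.59 (unadjusted p = 0.586 by limma).

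Lower with NAM in M/D-driven tumors were a pair of loci downstream of *Lpar5*, a lysophosphatidic acid receptor. GSMG0032478, 965 bp away, took 302.3, 231.4, 334.2 and 486.1 normalized reads in untreated and 122.2, 157.1, 96.65 and 78.62 in NAM-treated tumors (log2 difference −1.56, SE 0.35, unadjusted p = 0.00179 by limma). GSMG0032479, 2395 bp away, took 202.5, 163, 232 and 362.1 and then 68.76, 109.6, 66.28 and 57.76 (−1.63, SE 0.37). *Lpar5* itself took 789.4, 648.6, 1092 and 1809 and then 461.8, 461.5, 301.9 and 286.4 (−1.44). All 3 were lower in every NAM-treated than in every untreated M/D-driven tumor, and in AT3 tumors their values were at or under 98.78.

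Further lower loci in M/D-driven tumors were GSMG0003418 (pseudogene *Gm3571*, log2 difference −1.65), GSMG0032242 (TEC gene *Gm44220*, −1.56), GSMG0007111 (2942 bp upstream of *Slfn8*, −0.92) and GSMG0033063 (an exon of *Znrf2*, −0.75, against −0.71 for the *Znrf2* locus). GSMG0003418 took 880.1 to 1806 in untreated and 255.5, 773.3, 258.7 and 308 in NAM-treated tumors, tumor 2 being close to the untreated range.

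The second test compared NAM-treated with untreated AT3 tumors. Of the 1856 loci 1673 were tested and 183 were not. Over all 19281 loci tested 12.2% were called higher and 10.9% lower, whereas 40 loci without a symbol (2.39%) were higher and 289 (17.3%) lower. Their median log2 difference was −0.38, against −0.05 over all loci tested. Values did not overlap for 53 loci in the higher and 339 in the lower direction, where 11.7% and 11% of all loci did so. An adjusted p of 0.05 by limma was passed by 1 locus without a symbol, GSMG0043594 (0.00519% of all loci tested), while edgeR gave 0 and DESeq2 gave 126. Nothing is read from these shares, for the reason given above. Removal of each tumor's trend with span took the counts to 168 higher and 133 lower, with 6.88% and 9.43% of all loci, and the median to 0.03. The direction of the median and the balance of the calls thus depended on whether this trend was removed. Loci without a symbol were mostly shorter than loci with one, so span and the lack of a symbol cannot be told apart.

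Lower loci were called in most positions. They numbered 94 of 539 in protein-coding exons, 50 of 365 in introns of protein-coding genes, 38 of 188 in lncRNA exons, 28 of 136 in TEC exons, 30 of 142 in pseudogene exons and 20 of 68 upstream of genes, beside 11, 11, 1, 0, 6 and 1 higher loci. Of 26 tested loci that matched lncRNAs of bidirectional promoters, 12 were lower and 0 higher, with a median log2 difference of −0.75. Untreated AT3 tumor 2 had the highest value for 235 of 365 intron loci (median deviation 0.90), and without it 48 intron loci were higher and 39 lower, with a median of −0.03. Over 303 intron loci in AT3 tumors the median log2 difference was −0.33, against 0.21 over their 274 host genes, and 34.7% of the loci were above the host. Of the 42 lower ones, 6 had a host that was itself called lower. Loci with a symbol also differed by span in AT3 tumors. Their median was −0.41 at spans of 2000 to 5000 bp and 0.33 at 20000 bp or more. With each tumor's trend with span removed, 35 intron loci were higher and 30 lower, with a median of 0.05. Nothing is read from the contrast with host genes.

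**Figure D5:**
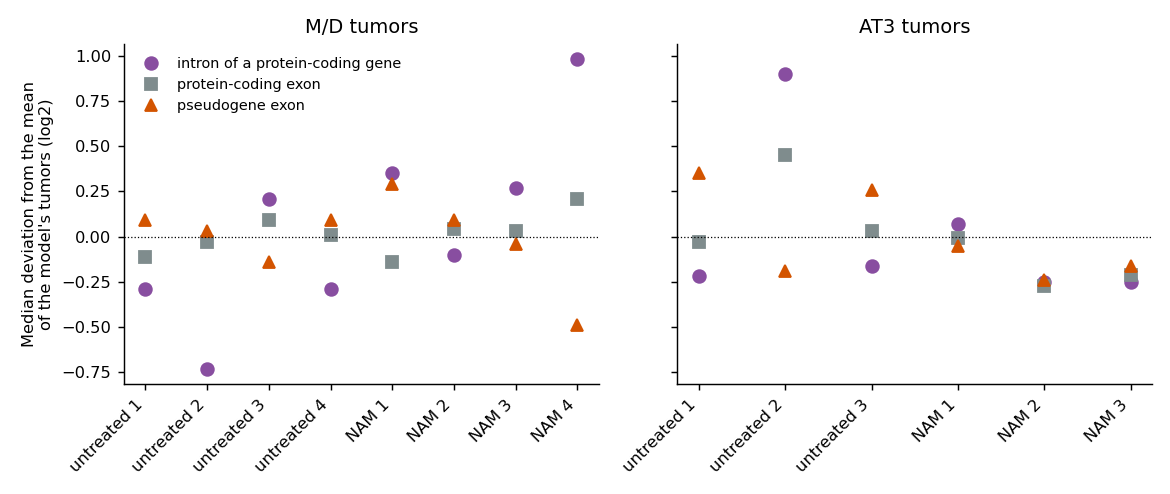
Median deviation of each tumor from the mean of its model (log2) over loci without a symbol, by position. Intron loci deviate by 0.98 in NAM-treated M/D-driven tumor 4 and by 0.90 in untreated AT3 tumor 2, and pseudogene loci by −0.49 in the former.

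GSMG0043594 (*Gm6139*, chr5:129622946-129623221) took 250.7, 134 and 233.6 normalized reads in untreated AT3 tumors and 0 in all 3 NAM-treated ones, at least 69.1-fold lower when 3 reads per tumor are taken as the floor (adjusted p = 0.00555 by limma). In M/D-driven tumors it took 3.116, 61.93, 4.506 and 116.7 and then 37.35, 37.75, 56.15 and 77.81, which overlapped. GSMG0043594 is a pseudogene locus that matches the ribosomal protein gene *Rps2*, whose locus took 84476 normalized reads on average. Copy and parent differed, with log2 NAM differences of −7.64 and −0.64 in AT3 and 1.33 and −0.18 in M/D-driven tumors. Which of them produced the reads on this locus was not tested. The reverse was seen for GSMG0006299 in an intron of *Ankrd12*, which was at 0 in all untreated AT3 tumors and at 24.3, 9.408 and 21.48 in NAM-treated ones, at least 5.61-fold higher. In M/D-driven tumors this locus took 68.55, 241.2, 102.9 and 170.6 and then 37.35, 21.92, 91.13 and 54.55, a log2 difference of −1.52 (SE 0.57, adjusted p = 0.734 by limma) with overlapping groups, while *Ankrd12* differed by −0.05 and −0.15 in M/D-driven and AT3 tumors.

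The other loci named for AT3 tumors had an adjusted p of 0.166 by limma. GSMG0009466 in an exon of *Inhba*, which encodes the activin beta A subunit, took 836.2, 1349 and 1118 in untreated and 435, 387.6 and 264.4 in NAM-treated tumors (log2 difference −1.61, SE 0.28), against −0.10 for the *Inhba* locus. GSMG0022116 (*2900093K20Rik*, in *Oser1*) took 431.9, 311.7 and 428.1 and then 160.4, 114.8 and 77.65 (−1.77), and GSMG0038354 (*Gm9908*, 287 bp upstream of the cadherin gene *Fat1*) took 157.4 to 190.5 and then 47.04 to 64.4 (−1.64). GSMG0037781 (*Rps26-ps1*) had a log2 difference of −2.61.

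Higher in NAM-treated AT3 tumors were GSMG0005926 in an intron of the proton pump gene *Atp6v0a1*, with 11.59, 10.15 and 13.02 and then 35.24, 55.5 and 66.91 (log2 difference 2.05), and GSMG0018244, 91 bp downstream of *Pura*, with 60.87, 147.2 and 83.03 and then 193.2, 300.1 and 397.4 (1.64). The remaining 3, GSMG0058874, GSMG0058896 and GSMG0058873, spanned 50, 77 and 34 bp and lay 4108, 7195 and 4009 bp from the *AU020206* locus. Their log2 differences were 2.10, 2.62 and 2.93 from values of at most 7.326 in untreated AT3 tumors.

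Both models were tested for 1645 loci without a symbol, of 18271 loci in all. By the unadjusted p and fold used above, NAM went with higher values in M/D-driven and lower values in AT3 tumors at 47 loci without a symbol, where this held for 0.706% of all loci. The reverse held for 2 (0.602% of all loci), 2 were lower in both (0.137%) and 0 were higher in both (0.0602%). Nothing is read from these counts either. The difference between the NAM effects was tested by an interaction term over the 14 tumors. It reached an unadjusted p of at most 0.05 for 317 of 1856 loci without a symbol (17.1%), against 14.9% of all 22710 loci tested, and none passed an adjusted p of 0.05 by limma or edgeR (0% of all loci by limma). With a fold of 1.5 required as well, 271 were higher and 46 lower in M/D-driven relative to AT3 tumors, where 6.97% and 7.9% of all loci were. GSMG0029479 (TEC gene *Gm42690*) took 16.09 to 30.12 in untreated and 34.98 to 89.13 in NAM-treated M/D-driven tumors, and 93.41 to 173.4 and then 33.04 to 48.6 in AT3 tumors. Neither pair of groups overlapped, and the difference between the NAM effects was 2.93 on the log2 scale (SE 0.60, unadjusted p = 0.000258 by limma).

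Finally, untreated M/D-driven tumors were compared with untreated AT3 tumors, at an adjusted p of 0.05 and a fold of 2. Of 1821 loci tested, 293 (16.1%) were higher in M/D-driven and 482 (26.5%) higher in AT3 tumors, where 26.8% and 15.8% of all 21470 loci were. With size factors as deposited, which scale each model apart, the counts were 360 and 377, with 31.5% and 11.9% over all loci. The balance thus depended on scaling, and 35 loci were not tested. By position, 108 of 389 intron loci were higher in AT3 and 46 in M/D-driven tumors, and 37 of 71 upstream loci were higher in AT3 and 4 in M/D-driven tumors.

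Loci higher in untreated M/D-driven tumors included the *2210017I01Rik* locus described above (at least 730-fold) and GSMG0036812 (lncRNA *Gm45397*), with 759.3, 744.3, 1325 and 730.7 in untreated M/D-driven and 11.59, 0 and 3.256 in untreated AT3 tumors (log2 difference 7.65, SE 0.78, adjusted p = 0.000193 by limma). GSMG0036812 took 1.698, 64.43 and 58.56 in 3 NAM-treated M/D-driven tumors but stood at 756.2 in tumor 2. GSMG0019530 in an exon of the ion channel gene *Trpm3* took 123.9 to 368.3 against 0 to 2.031, and GSMG0009825 across introns of the histone gene *H2afy* took 29.34 to 600.3 against 0 (at least 63.1-fold). The host loci *Trpm3* and *H2afy* differed by 4.94 and 0.38 on the log2 scale. The untreated groups did not overlap at GSMG0036812, GSMG0019530 or GSMG0009825, and untreated M/D-driven tumor 2, at 0, overlapped AT3 tumors at the *2210017I01Rik* locus.

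Among loci higher in untreated AT3 tumors, GSMG0012886 in an exon of *Zic5*, a zinc finger gene of the neural crest, took 101.4, 83.26 and 109.9 in untreated AT3 tumors and 0 in untreated M/D-driven tumors (at least 41.9-fold), and the *Zic5* locus differed in the same direction by −5.78. GSMG0042968, 320 bp upstream of *Klhl34*, took 82.6, 292.4 and 114 against 0, 0, 0 and 3.219. GSMG0012766 in an intron of *Pcdh9*, a protocadherin, took 78.26, 112.7 and 121.3 against at most 1.502, but 219 in NAM-treated M/D-driven tumor 1. GSMG0021500 within the non-coding gene *Platr14* took 31.88, 67.01 and 52.09 against 0 (at least 21.5-fold). In these 4 loci the untreated groups did not overlap. The values of GSMG0021500 in untreated AT3 tumors lay around the minimum by which loci were retained. Loci named here for either model were retained by their highest group mean and then chosen for a large fold. A difference between groups was thus favored by the choice, and these folds and separations are given as descriptions.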

How the data were processed

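RNA-seq was analysed in 14 mammary tumors (TruSeq mRNA libraries, paired-end). Per the study's methods, the authors mapped reads with STAR 2.4.0 on mm10 and counted reads falling on constitutive gene regions from Mouse FAST DB. The deposited values are a normalized signal, read counts divided by a DESeq2 size factor per tumor. The strand used in counting is not given in the sources used here, so overlapping and antisense loci cannot be told apart, and reads shared by near-identical copies are uncertain. Each tumor was assigned to a group by its title, and 0 of the 14 value columns were left unmapped. All values (100%) were whole multiples of the value of 1 read within a tolerance of 0.01, and whole reads were thereby recovered. The depth of a tumor is the sum of these reads. Models had been normalized apart, the median ratio of a tumor to its own model being 0.975 to 1.023, against 0.837 to 1.166 over both models.

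Loci whose mean reached 10 in 1 group or more of the comparison were tested with limma 3.58.1 (R 4.3.3, mean-variance trend) on log2(value + 1), which understates differences of loci with few reads. Benjamini-Hochberg adjustment was made over all loci tested. Untreated models were compared on recovered reads scaled by TMM factors of edgeR 4.0.16. Tests were checked on simulated data. Alternatives were pseudocounts of 0.5 and 5, other filters, TMM scaling, the edgeR quasi-likelihood and DESeq2 1.42.0 Wald tests on recovered reads, the replicate block, removal of each tumor's trend with span (a spline with 4 degrees of freedom), all 14 tumors in 1 fit, loci chosen by the mean over 14 tumors, and each tumor left out.

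Coordinates are 1-based as deposited. Positions were taken from GENCODE M21 and names also from RefSeq, both on GRCm38. Sequences came from GENCODE transcripts, and matches to other genes were sought with BLAST+ 2.17.0. Named loci were the 8 highest, the 6 per direction in each comparison with the smallest p without overlap (NAM) or the largest fold (models), the 3 longest and shortest, the 4 with most and least spread, those past an adjusted p of 0.05, the 4 with the smallest interaction p, and 3 on either side of the minimum. The printed pseudogene loci, *Dsp*, the immunoglobulin, T cell receptor and mitochondrial loci beyond these were chosen after their values were seen. The members, lists and rules were chosen with earlier results of these data known. A few loci that the rule names are not reported here.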

Additional observations from a re-analysis of the deposited data

Results flagged for a closer look

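Among the named loci, 120 groups of 4 tumors were examined for a tumor far from the others by Dixon's ratio against its 95% critical value, and 17 values exceeded it. The critical value holds for normally distributed values, whereas these loci were named partly for large spread or fold and share the same tumors. Where all other tumors of a group are at 0, as at GSMG0043435, any read exceeds it. The count of 17 is therefore not set against a rate from chance. In NAM-treated M/D-driven tumor 1 these were GSMG0041512 (*mt-Rnr2* and *mt-Nd1*, 171196 normalized reads), GSMG0006633 (39.05) and the *Pax5* locus GSMG0027753 (8484). In NAM-treated tumor 2 they were GSMG0003418 (773.3), GSMG0025684 (1069), GSMG0012886 (12.18) and GSMG0005024 (*Gm12116*, 2.436), and in NAM-treated tumor 4 GSMG0025207 (*7530428D23Rik*, 3.209) and GSMG0043435 (174.1). Among untreated M/D-driven tumors, tumor 1 was lowest at GSMG0041516 (136000) and GSMG0033063 (178.7), and tumor 2 at GSMG0025684 (0). Tumor 3 was highest at GSMG0036812 (1325). Tumor 4 was lowest at GSMG0058873 (6.438) and highest at GSMG0003418 (1806), GSMG0042968 (3.219) and GSMG0043435 (58.75). Several of these values, such as 2.436, 3.209 and 3.219, correspond to a few reads.

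At 5 named loci the groups with and without NAM were fully separated in each model, in opposite directions. The difference itself was tested by the interaction term of limma over the 14 tumors. The log2 difference between models was 2.69 for GSMG0006718 (unadjusted p = 0.000339 by limma), 3.41 for GSMG0030728 (0.000297), 3.33 for GSMG0006633 (0.000585), −3.46 for GSMG0032242 (0.00177) and 2.93 for GSMG0029479 (0.000258). Benjamini-Hochberg adjusted p values by limma were 0.183 to 0.187, so none passed 0.05. These loci were named for a small p without overlap or a small interaction p, so the test reuses the values that chose them. Among the 1645 loci without a symbol tested in both models, 34 were separated as higher in M/D-driven and lower in AT3 tumors. The reverse held for 2, and neither was counted over all loci, so nothing is read from these counts.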

How the results depend on the processing

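The rule retained 2857 loci at a minimum of 25 and 1145 at 100. In M/D-driven tumors, the 139 higher loci became 75 with a group mean of at least 50 required for testing, 259 with DESeq2 and 83 when loci were chosen by the mean over 14 tumors, and the 36 lower loci became 80 with the span trend removed and 63 with all 14 tumors in 1 fit. DESeq2 gave 20 loci at an adjusted p of 0.05 against 0. In AT3 tumors, the 40 higher loci became 168 and the 289 lower loci 133 with the span trend removed, and 176 were lower with all 14 tumors in 1 fit. The 1 locus at an adjusted p of 0.05 became 0 with edgeR, 126 with DESeq2 and 0 with all 14 tumors in 1 fit. With the span trend removed the median turned to −0.01 in M/D-driven and 0.03 in AT3 tumors. Between models, choosing loci by the mean over 14 tumors gave 194 higher in M/D-driven and 315 higher in AT3 tumors, fewer loci being counted. For other changes the cause was not tested. Shares over all loci are not given for most of these counts, here, below or for DESeq2 above. They therefore describe how calls of loci without a symbol moved, and nothing more is read from them.

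With each tumor left out in turn, higher loci ranged from 68 (without untreated tumor 1 or 2) to 218 (without NAM-treated tumor 2) and lower loci from 18 to 70 in M/D-driven tumors, with 0 to 0 at an adjusted p of 0.05. In AT3 tumors higher loci ranged from 7 (without NAM-treated tumor 2) to 144 (without untreated tumor 2), lower loci from 122 (without NAM-treated tumor 3) to 420 (without NAM-treated tumor 1) and adjusted calls from 0 to 181. Between models the ranges were 200 to 333 higher in M/D-driven and 354 to 469 higher in AT3 tumors, and for the interaction 195 to 388 at an unadjusted and 0 to 29 at an adjusted p of 0.05. Without NAM-treated M/D-driven tumor 1 the M/D-driven counts were 113 and 22.

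Same-numbered tumors were not found to be paired. The correlations of their deviations were 0.11, −0.444, −0.216 and −0.186 in M/D-driven and 0.126, 0.256 and −0.16 in AT3 tumors, and the best match was the own number for 1 of 4 and 2 of 3. With the replicate number as a block, 85 loci were higher and 22 lower in M/D-driven tumors, 61 passed an adjusted p of 0.05 in AT3 tumors, and 291 were higher in AT3 than in M/D-driven tumors. For 24 calls of named loci, 406 of 421 alternatives kept direction and call, 15 lost the call and 0 turned it. Depth limits loci of a few reads.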

Other observations

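Loci on unplaced scaffolds, which the report did not describe, took reads in every tumor. GSMG0053277 (42837 bp on scaffold JH584304) took 6456, 4057, 8451 and 3912 normalized reads in untreated and 11393, 9842, 8376 and 11756 in NAM-treated M/D-driven tumors, which overlapped through untreated tumor 3 (log2 difference 0.92, SE 0.28, unadjusted p = 0.0102 and adjusted p = 0.734 by limma). In AT3 tumors it took 12721, 18276 and 9256 in untreated and 9562, 9046 and 7729 in NAM-treated tumors. GSMG0043039, which covers the carnitine synthesis gene *Tmlhe* on a scaffold of chromosome X, took 403 to 572.2 in untreated M/D-driven and 13.04 to 43.95 in untreated AT3 tumors, a log2 difference of 3.82 (SE 0.45, adjusted p = 0.000366 by limma).

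A locus of 24 bp far from protein-coding genes, GSMG0056413 (chr2:40555709-40555732), took 3170 to 5602 normalized reads in M/D-driven and 2385 to 7846 in AT3 tumors. All 4 groups overlapped. Among protein-coding genes present only as loci without a symbol, GSMG0036054, which covers the transcription factor *Klf13*, took 7932 to 15870 in M/D-driven and 9386 to 23956 in AT3 tumors. GSMG0051995, which covers the monoamine transporter *Slc29a4*, took 246.3 to 557.4 in untreated and 65.36 to 310.2 in NAM-treated M/D-driven tumors, and 194.5 to 403.1 and 391.2 to 607.2 in AT3 tumors. Its log2 NAM differences were −1.38 and 0.95 (adjusted p = 0.734 and 0.169 by limma). These loci were chosen after their values were seen.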
